A study of Mus musculus with 28 samples.

Results

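The interferon-stimulated genes described here are 34 named mouse genes that cells switch on in answer to interferons. A gene entered through the array probes whose RefSeq accession belongs to it, whatever its measured values. The list itself was chosen with earlier results of these data known. Of the 34 genes 32 had a matched probe, with 40 probes among the 55681 non-control probes of the array and 32 entries among its 37208 genes and transcripts, and 8 of the 32 had several probes. Mx1 and Mx2 are not analysed here.

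Each of 28 male mice gave liver RNA for 1 Agilent expression array, read in a single colour. The study set phenobarbital (PB), an antiepileptic drug that activates the nuclear receptor CAR in hepatocytes, against control diet in 3 kinds of mice. Male CD-1 mice, an outbred stock, received 1500 ppm PB or 0 ppm for 7 days, with 4 animals each. Male hCAR/hPXR mice, which carry human in place of mouse CAR and PXR, received 1000 ppm PB or 0 ppm for 7 days, with 7 animals each. Male C3H/HeNCrlCrlj mice, called C3H here, received 500 ppm PB or 0 ppm for 27 weeks, with 3 animals each, and all 6 C3H animals had first been given 90 mg/kg of the liver carcinogen diethylnitrosamine by injection into the peritoneum. Ages are not given in the sources used here. The labels describe the animals of each group as biological replicates. Strain, dose, time, diethylnitrosamine and array slide differ together between the 3 experiments and cannot be told apart.

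Interferons of type I and type III bind receptors that act through the kinases Jak1 and Tyk2, which phosphorylate Stat2. With Irf9 it enters a complex that binds the interferon-stimulated response element, a short GA-rich motif in the promoters of many of these genes. Interferon-gamma acts mainly through another motif, the gamma-activated site. The induced proteins sense foreign nucleic acid, block viral translation and replication, cut proteins for presentation and attract lymphocytes, and in liver both hepatocytes and immune cells make them.

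The promoters of 5 members are printed because these genes are among those described below and hold the letters of the response element. Sequences are the RefSeq windows of assembly GRCm38.p6, 300 bases long, with 250 bases before the gene start and 50 from it, written along the gene's own strand, and capitals mark every match on either strand to the element as searched here, which is GAAA, any 2 bases, then GAAA. Isg15 lies at chr4:156200769-156201068 on the minus strand and has 3 matches that overlap, the first of them starting at position -78 from the gene start. Rsad2 lies at chr12:26456403-26456702 on the minus strand with 1 match at -120, and Cxcl10 at chr5:92348840-92349139 on the minus strand with 1 match at -213. Ifit1 lies at chr19:34640639-34640938 on the plus strand with matches at -104 and -85. Oas1a lies at chr5:120907476-120907775 on the minus strand with overlapping matches at -20 and -14.
Isg15: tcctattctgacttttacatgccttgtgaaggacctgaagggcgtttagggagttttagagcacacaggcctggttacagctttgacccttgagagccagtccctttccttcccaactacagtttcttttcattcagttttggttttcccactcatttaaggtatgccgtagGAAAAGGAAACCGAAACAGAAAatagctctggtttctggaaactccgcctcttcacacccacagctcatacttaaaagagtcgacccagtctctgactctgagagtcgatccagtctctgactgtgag
Rsad2: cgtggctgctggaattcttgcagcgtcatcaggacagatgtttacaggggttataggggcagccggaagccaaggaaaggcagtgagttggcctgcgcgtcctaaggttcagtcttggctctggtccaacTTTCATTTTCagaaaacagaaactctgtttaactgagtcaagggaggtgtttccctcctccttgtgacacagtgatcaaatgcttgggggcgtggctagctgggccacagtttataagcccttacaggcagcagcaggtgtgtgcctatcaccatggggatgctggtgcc
Cxcl10: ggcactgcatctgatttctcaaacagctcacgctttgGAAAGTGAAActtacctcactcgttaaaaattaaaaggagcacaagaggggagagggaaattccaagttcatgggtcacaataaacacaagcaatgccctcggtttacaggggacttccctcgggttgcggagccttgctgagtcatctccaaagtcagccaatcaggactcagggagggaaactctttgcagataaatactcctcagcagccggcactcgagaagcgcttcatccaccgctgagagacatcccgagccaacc
Ifit1: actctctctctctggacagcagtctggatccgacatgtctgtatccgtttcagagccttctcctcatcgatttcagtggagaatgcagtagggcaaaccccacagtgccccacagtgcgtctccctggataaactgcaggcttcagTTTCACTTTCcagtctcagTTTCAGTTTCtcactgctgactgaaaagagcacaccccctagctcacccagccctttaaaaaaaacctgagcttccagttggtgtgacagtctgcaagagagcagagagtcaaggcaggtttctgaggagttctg
Oas1a: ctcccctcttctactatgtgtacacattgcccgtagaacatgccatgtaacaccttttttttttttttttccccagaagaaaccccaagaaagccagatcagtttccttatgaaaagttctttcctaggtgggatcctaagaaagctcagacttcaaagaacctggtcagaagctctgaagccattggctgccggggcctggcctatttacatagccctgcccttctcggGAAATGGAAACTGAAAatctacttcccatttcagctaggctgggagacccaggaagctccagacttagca

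Windows were given for 25 members, 30 windows in all because some members have several. The response element was found in 15 of the 30 windows, of 14 genes, which is 50%, against 1131 of all 32851 windows of the table, or 3.44%. The gamma-activated site TTCNNNGAA, also searched on both strands, was found in 6 of the 30 windows, or 20.0%, against 8.30% of all windows. A match is a description of the letters and not a measured binding site.

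Levels below are log2 of the processed signal minus the 75th percentile of the same array, so a level of 0 is the array's 75th percentile and a difference of 1 is a doubling. A member was tested where the scanner software marked it well above background on every array of at least 1 of the groups compared. It was called when limma's adjusted p over all genes tested was under 0.05. Each gene's level comes from 1 probe, and levels of different genes are not set against each other.

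In the CD-1 experiment 25 of the 32 members were above background on every array of PB-fed animals and 19 on every array of control animals. For hCAR/hPXR mice these counts were 31 for PB and 30 for control, and in C3H mice also 31 for PB and 30 for control. The arrays of the CD-1 animals were dimmer than the others, with a 99th percentile of signal of 4019 to 6490 against 30159 to 48010 for hCAR/hPXR and 22576 to 31394 for C3H. The median coefficient of variation of replicate spots was marked out of range on all 8 CD-1 arrays, at 17.7% to 21.2% for PB and 11.04% to 13.06% for control, and also on 3 of the 14 hCAR/hPXR arrays. In the CD-1 experiment all PB arrays lie on 1 slide and all control arrays on another, so slide and treatment cannot be told apart there. The 9 hepatocyte markers were above background on every array of all 6 groups. Cyp2b10, the classical target of CAR, was higher with PB in CD-1 (log2 difference 6.66, adjusted p = 1.62e-05), hCAR/hPXR (4.49, adjusted p = 2.46e-09) and C3H mice (5.74, adjusted p = 0.000335).

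PB-fed hCAR/hPXR livers carried more RNA of most interferon-stimulated genes than their controls. Of 31 members tested 26 rose and 1, Gbp6, fell, and the median log2 difference of PB minus control was 0.56 over the members against 0.13 over all 20035 genes tested. In this comparison 34.9% of all genes tested were called higher and 23.2% lower, so that calls were common everywhere. With quantile normalization the medians were 0.40 over the members and 0.05 over all genes with 20 members called, and with normexp background correction 0.30 and 0.03 with 18 called. In CD-1 livers none of 25 members was called, where 1.85% of all genes tested were called higher and 6.13% lower. By limma 3 of the 25 had an unadjusted p under 0.05, and 1 fit of all 28 arrays called 4. Of the 25 members 6 were tested only because they were above background on every PB array, and over the other 19 the median difference was 0.18, against -0.17 over all genes above background on every CD-1 array. In C3H livers 5 of 31 members rose and none fell, where 7.38% of all genes tested were called higher and 7.3% lower, and 10 had an unadjusted p under 0.05. In bulk liver RNA, fewer cells of a type and less RNA per cell cannot be told apart.

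**Figure D1:**
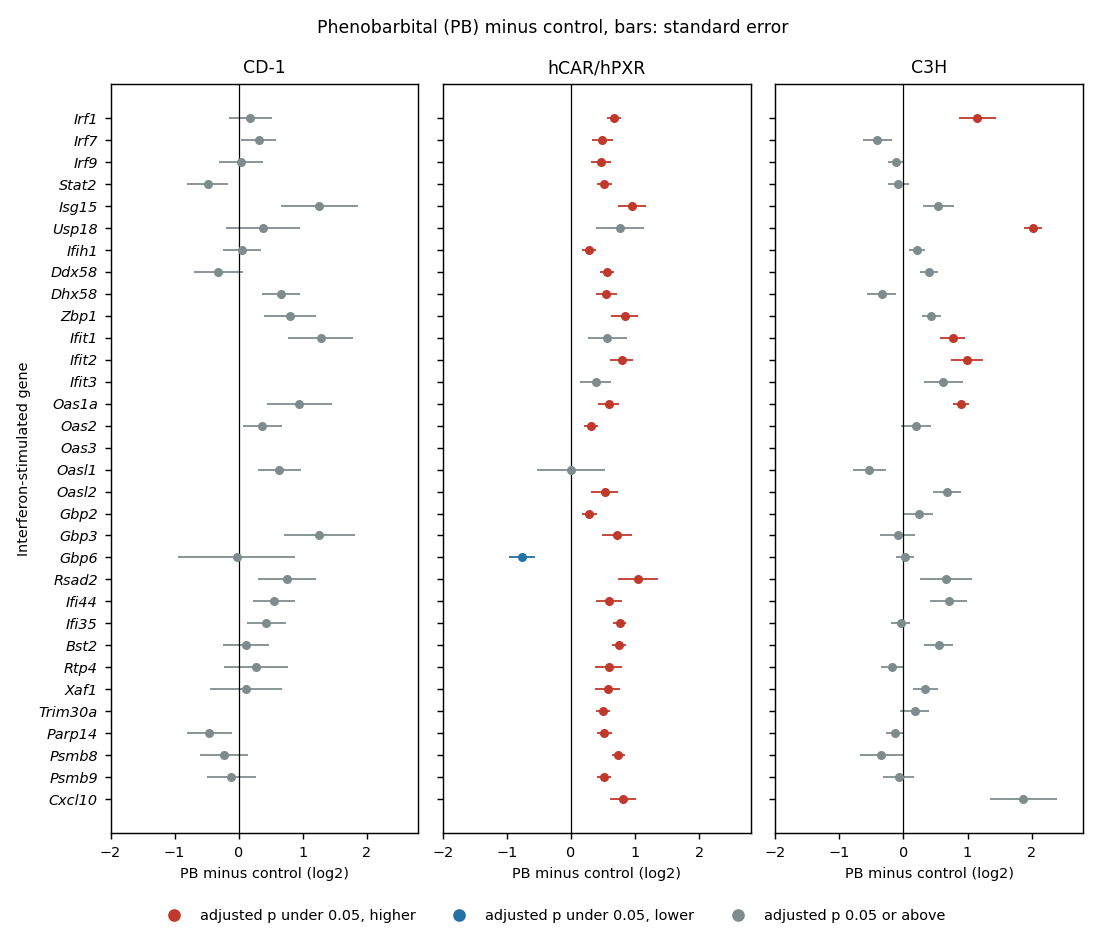
Log2 difference of PB minus control (horizontal axis) with its standard error for each interferon-stimulated gene (vertical axis), in a panel per strain; genes not tested in a strain are left blank. In hCAR/hPXR mice 30 of 31 members lie right of 0, Oasl1 among them at 0.004, in C3H 20 of 31 and in CD-1 19 of 25. In CD-1 mice 47.5% of all genes tested had a positive difference.

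The slides of the hCAR/hPXR experiment bear on all of its counts. The 7 control arrays and that of PB animal 1 lie on 1 slide, and the arrays of PB animals 2 to 7 on another. With the slide as a block, which leaves PB animal 1 against the controls as the comparison within a slide, no member was called and 5 had an unadjusted p under 0.05, while 1.26% of all genes were called higher and 0.933% lower. All 31 members kept the sign of their difference, and their median was 0.55, against 0.05 over all genes. These differences rest on 1 PB animal, and that animal and the controls also enter the differences without the block. The shared sign is therefore not independent support, and the members are not replicates of the treatment. By size, without regard to sign, 15 of the 31 log2 differences were larger with the block and 16 smaller. The difference of Cxcl10 was 1.19 with the block (adjusted p = 0.170) and 0.81 without it, that of Rsad2 was 1.26 and 1.04, and that of Isg15 was 0.93 and 0.95. The differences of 6 members shrank to under 50% of their size, and these were Ifi35, Bst2, Trim30a, Psmb8, Psmb9 and Gbp6. Psmb9, for example, stood at 0.004 with the block and 0.51 without it.

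**Figure D2:**
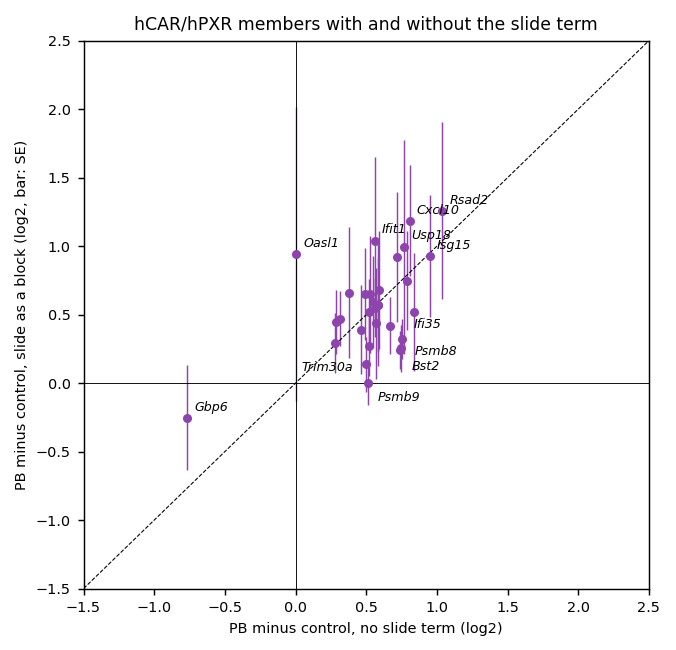
Log2 difference of PB minus control in hCAR/hPXR mice for each interferon-stimulated gene without a slide term (horizontal axis) and with the slide as a block (vertical axis, bars are standard errors). All 31 points keep their sign, while Psmb9, Bst2, Psmb8, Trim30a and Ifi35 lie far under the line of equality. The vertical values rest on PB animal 1 and the controls, which also enter the horizontal values.

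The 4 regulators among the members all rose in hCAR/hPXR livers, where 34.9% of all genes tested were called higher. Irf7, the transcription factor that amplifies type I interferon production, had a log2 level of 0.52 at the lowest, 1.19 at the median and 1.71 at the highest in the 7 PB animals, against 0.41, 0.68 and 0.98 in the 7 controls. The groups overlapped, and PB animal 2, the lowest PB animal, lay below 5 of the 7 controls. The difference was 0.49 (SE 0.17, adjusted p = 0.0200). Stat2, the partner of Irf9 in the response element complex, reached 3.66, 3.91 and 4.13 in PB animals, against 3.03, 3.32 and 3.80 in controls. Its groups overlapped at their edges, and the difference was 0.52 (SE 0.11, adjusted p = 0.00127). Irf1, a regulator that interferon-gamma induces strongly, differed by 0.67 (SE 0.11, adjusted p = 0.000169), and Irf9 by 0.46 (SE 0.16, adjusted p = 0.0205). With the slide as a block the differences were 0.65 for Irf7, 0.27 for Stat2, 0.42 for Irf1 and 0.39 for Irf9.

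In CD-1 mice 3 of the 4 regulators had a positive difference and none was called, and with normexp background correction Irf1 and Irf9 turned negative (-0.17 and -0.21). Irf7 lay at -0.39, 0.47, -0.11 and 0.04 in PB animals 1 to 4, against -0.63, -0.20, -0.25 and -0.15 in control animals 1 to 4. PB animal 1 was the only PB animal inside the range of the controls, and the difference of 0.31 was not called (adjusted p = 0.481). Stat2 lay at 0.40, 1.75, 1.12 and 1.57 in PB animals, against 1.87, 1.38, 1.77 and 1.76 in controls. PB animals 1 and 3 were below every control, the others inside their range, and the difference was -0.48 (SE 0.32, adjusted p = 0.342).

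In C3H mice Irf1 was the regulator that rose. It had levels of 4.48, 4.41 and 4.41 in PB animals, against 2.61, 3.54 and 3.68 in controls, with no overlap and with control animal 1 well below the other controls. The difference was 1.15 (SE 0.28, adjusted p = 0.0435), and it was no longer called in 8 of 14 alternative fits. Irf7 lay at 1.03, 0.90 and 0.21 in PB animals, against 1.03, 1.20 and 1.13 in controls, and was not called (difference -0.41, adjusted p = 0.246). Stat2 overlapped throughout, at 3.87, 3.58 and 4.13 in PB animals against 3.89, 3.88 and 4.04 in controls, with a difference of -0.08 (adjusted p = 0.768).

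**Figure D3:**
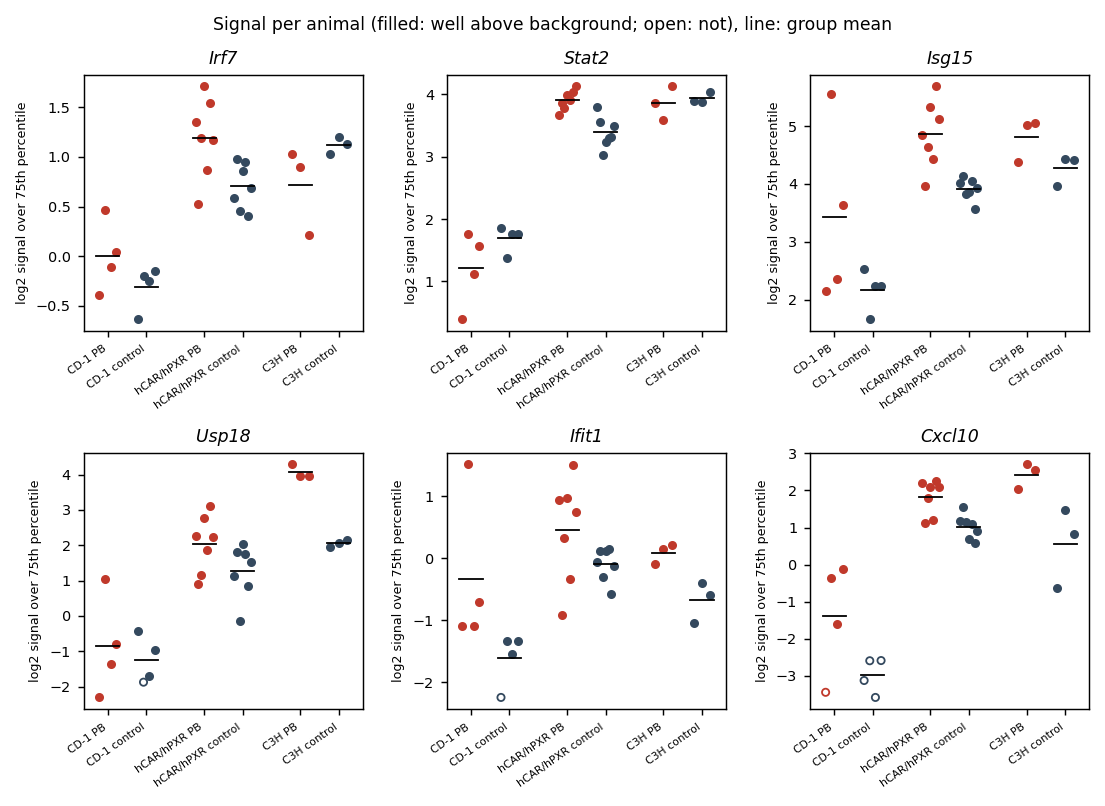
Log2 level relative to the array's 75th percentile (vertical axis) of Irf7, Stat2, Isg15, Usp18, Ifit1 and Cxcl10 in each animal of the 6 groups (horizontal axis, PB left of control); filled points were well above background and open points were not. In C3H mice the 3 PB animals lie above all 3 controls for Usp18, Ifit1 and Cxcl10.

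Isg15 encodes a ubiquitin-like protein that is attached to other proteins during the antiviral response, and Usp18 encodes the protease that removes it and also restrains the type I interferon receptor. Isg15 in hCAR/hPXR mice had levels of 3.96 at the lowest, 4.84 at the median and 5.69 at the highest in PB animals, against 3.56, 3.93 and 4.13 in controls. PB animal 2 lay inside the range of the controls and the other PB animals above all of them, and the difference was 0.95 (SE 0.21, adjusted p = 0.00175). Usp18 ranged from 0.91 to 3.095 with a median of 2.23 in PB animals, against -0.16 to 2.05 with a median of 1.53 in controls. Its spread in both groups was wide, and the difference of 0.77 was not called (SE 0.38, adjusted p = 0.0936). Without PB animal 2 it was 0.96 with an adjusted p of 0.0376, the only call in 24 alternative fits.

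Usp18 had the largest difference of any member in C3H mice. Its levels were 4.28, 3.95 and 3.97 in PB animals, against 1.95, 2.06 and 2.15 in controls, and the groups stood far apart. The difference was 2.02 (SE 0.14, adjusted p = 0.00142), and the call held in all 14 alternative fits, where the difference lay between 1.56 and 2.08. Isg15 lay at 4.37, 5.01 and 5.06 in C3H PB animals, against 3.96, 4.43 and 4.42 in controls. PB animal 1 was inside the range of the controls, and the difference of 0.55 was not called (adjusted p = 0.151).

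In CD-1 mice the level of Isg15 was uneven among the PB animals. PB animals 1 to 4 had levels of 2.15, 5.56, 2.35 and 3.64, against 2.53, 1.66, 2.24 and 2.24 in controls. PB animals 2 and 4 lay above every control and the other PB animals inside their range. The difference was 1.26 (SE 0.60, adjusted p = 0.195). Usp18 in CD-1 mice lay at -2.31, 1.04, -1.37 and -0.80 in PB animals, against -0.42, -1.88, -1.69 and -0.96 in controls, of which animal 2 was not above background. The PB animals lay on both sides of the controls (difference 0.38, adjusted p = 0.698).

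The 4 nucleic acid sensors all rose in hCAR/hPXR mice, where 34.9% of all genes tested were called higher. Zbp1, which binds nucleic acid in the Z form and can start cell death, had levels of 1.78, 2.57 and 2.83 at the lowest, median and highest in PB animals, against 1.06, 1.60 and 2.40 in controls. The groups overlapped, and the difference was 0.84 (SE 0.21, adjusted p = 0.00385). Ddx58, the RNA sensor RIG-I, differed by 0.56 (SE 0.10, adjusted p = 0.000445) with no overlap, at 2.94 to 3.74 in PB animals and 2.61 to 2.88 in controls. Dhx58, a relative of RIG-I without its signalling domains, differed by 0.55 (adjusted p = 0.00948), and Ifih1, the sensor of long double-stranded RNA, by 0.28 (adjusted p = 0.0388), a call lost in 15 of 24 alternative fits. A second Ddx58 probe, above background on all 14 arrays, had a difference of 0.08. No sensor was called in C3H mice, where Zbp1 and Ddx58 had differences of 0.43 and 0.41 (adjusted p = 0.0943 and 0.0961) with every PB animal above every control.

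The IFIT proteins bind RNA that lacks the marks of host messengers and hold it back from translation. Ifit2 in hCAR/hPXR mice had levels of -2.81, -2.57 and -1.94 at the lowest, median and highest in PB animals, against -3.65, -3.27 and -2.70 in controls, and 6 of the 7 controls were above background. The groups overlapped by the lowest PB animal and the highest control, and the difference was 0.79 (SE 0.18, adjusted p = 0.00158). Ifit1 ranged from -0.91 to 1.51 with a median of 0.74 in PB animals, against -0.57 to 0.15 with a median of -0.05 in controls. PB animal 2 was below every control, PB animal 5 was inside their range and the other 5 were above them, and the difference of 0.56 was not called (SE 0.30, adjusted p = 0.125). Without PB animal 2 it was 0.79 with an adjusted p of 0.0127, the only call in 24 alternative fits. Ifit3 had a difference of 0.38 (adjusted p = 0.175), and without PB animal 2 it was 0.53 with an adjusted p of 0.0379. That was also its only call in 24 alternative fits.

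Ifit1 and Ifit2 rose in C3H mice. Ifit1 lay at -0.08, 0.15 and 0.21 in PB animals, against -1.05, -0.40 and -0.59 in controls. Ifit2 lay at -2.18, -1.94 and -1.98 in PB animals, against -3.57, -2.86 and -2.63 in controls, of which animal 1 was not above background. For both genes every PB animal was above every control. The difference of Ifit1 was 0.77 (SE 0.20, adjusted p = 0.0481) and that of Ifit2 0.99 (SE 0.25, adjusted p = 0.0463). The call was lost in 9 of 14 alternative fits for Ifit1 and in 10 of 13 for Ifit2, with no change of sign.

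Ifit1 in CD-1 mice was tested through its PB arrays, since 3 of the 4 controls were above background. Its levels were -1.09, 1.52, -1.09 and -0.71 in PB animals, against -2.25, -1.33, -1.55 and -1.34 in controls, of which animal 1 was not above background. It was the only CD-1 member whose PB animals all lay above all controls, a pattern shown by 6.62% of all genes tested in CD-1. The difference was 1.28 (SE 0.51, adjusted p = 0.130). Ifit2 and Ifit3 were not tested in CD-1.

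The OAS family makes oligoadenylates that activate the ribonuclease RNase L, and the OAS-like proteins are its relatives. Oas1a, Oas2 and Oasl2 rose in hCAR/hPXR mice, by 0.59 (adjusted p = 0.00759), 0.31 (adjusted p = 0.0171) and 0.53 (adjusted p = 0.0413). The call of Oasl2 was lost in 15 of 24 alternative fits and that of Oas2 in 5. Oasl1, known in mouse for restraining the translation of Irf7, had a difference of 0.004 (SE 0.53, adjusted p = 0.996). PB animal 5 stood alone at 0.68 with the next PB animal at 3.83, and without it the difference was 0.57 with an adjusted p of 0.0143. In C3H mice Oas1a rose, with levels of 3.94, 3.96 and 3.83 in PB animals, against 2.86, 3.13 and 3.05 in controls. The groups were well apart, the difference was 0.90 (SE 0.13, adjusted p = 0.0105), and the call was lost in 4 of 14 alternative fits. Oas3 was tested in no strain, and on the C3H arrays it was not above background in any animal.

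The guanylate-binding proteins are GTPases that attack the membranes around intracellular pathogens. Gbp3 rose in hCAR/hPXR mice by 0.72 (adjusted p = 0.0156) and Gbp2 by 0.29 (adjusted p = 0.0474), a call lost in 19 of 24 alternative fits. Gbp6 had levels of 0.59 at the lowest, 1.67 at the median and 2.18 at the highest in PB animals, against 2.19, 2.44 and 2.56 in controls, so the groups met without overlapping. It fell by 0.77 on the log2 scale (SE 0.20, adjusted p = 0.00467) on its brightest probe. A second Gbp6 probe, above background on all 14 arrays, had a difference of 0.30, and with the mean of both probes the difference was -0.23 and no longer called (adjusted p = 0.458). With the slide as a block the difference of the brightest probe was -0.25 (adjusted p = 0.805). In CD-1 mice Gbp3 lay at -1.73, -0.02, -2.32 and 0.46 in PB animals, against -3.14, -1.93, -1.77 and -1.81 in controls, of which animal 1 was not above background. PB animal 3 was below 3 of the controls, and the difference was 1.26 (SE 0.56, adjusted p = 0.167).

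The 8 other effectors all rose in hCAR/hPXR mice, where 34.9% of all genes tested were called higher. Rsad2, the antiviral enzyme viperin, had the largest difference of all members there, with levels of 0.17, 1.77 and 2.84 at the lowest, median and highest in PB animals, against 0.02, 0.66 and 0.92 in controls. PB animal 2 lay among the controls and the other 6 PB animals above all of them, and the difference was 1.04 (SE 0.31, adjusted p = 0.0107). Ifi35, an interferon-induced leucine zipper protein, had levels of 2.85, 3.36 and 3.62 in PB animals, against 2.45, 2.49 and 2.61 in controls, with no overlap (difference 0.76, SE 0.10, adjusted p = 3.83e-05). Bst2, the protein tetherin that holds budding virus at the cell surface, had levels of 6.05, 6.63 and 6.89 in PB animals, against 5.71, 5.76 and 6.01 in controls. Its groups also did not overlap (difference 0.75, SE 0.11, adjusted p = 0.000105). Ifi35 and Bst2 are among the members whose difference shrank with the slide as a block, to 0.32 and 0.25. Ifi44, Rtp4, Xaf1, Trim30a and Parp14 differed by 0.50 to 0.59, with adjusted p between 0.00172 and 0.0305, and the call of Rtp4 was lost in 12 of 24 alternative fits. None of the 8 was called in C3H or CD-1 mice.

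Psmb8 and Psmb9 encode catalytic subunits of the immunoproteasome, which cuts proteins into peptides for presentation. Both rose in hCAR/hPXR mice, by 0.74 (SE 0.10, adjusted p = 5.54e-05) and 0.51 (SE 0.11, adjusted p = 0.00136), and both were among those whose difference shrank most with the slide block. In CD-1 and C3H mice both had differences below 0 that were not called, and that of Psmb8 in CD-1 mice was 0.13 with normexp.

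Cxcl10 encodes a chemokine that draws T cells bearing the receptor Cxcr3. It had, in hCAR/hPXR mice, levels of 1.13 at the lowest, 2.10 at the median and 2.27 at the highest in PB animals, against 0.59, 1.10 and 1.57 in controls. The groups overlapped at their edges, and the difference was 0.81 (SE 0.20, adjusted p = 0.00370). In C3H mice it lay at 2.03, 2.70 and 2.55 in PB animals, against -0.63, 1.47 and 0.82 in controls. Every PB animal was above every control and the controls were widely spread, and the difference of 1.87 missed the threshold (SE 0.52, adjusted p = 0.0585), with a call in 4 of 14 alternative fits. In CD-1 mice 3 of 4 PB animals were above background, at -0.37, -1.59 and -0.13, while the remaining PB animal read -3.44 and none of the 4 controls was above background. It was not tested in CD-1, where the groups overlapped. With the PB values taken as read, that of -3.44 among them, the PB mean was at least 1.94-fold higher than in controls.

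Across strains 25 members were tested in all 3 experiments, and 12 of them had a positive difference in each. Irf1, Ifit2 and Oas1a were called higher in both hCAR/hPXR and C3H mice, and no member was called in all 3. Of all genes tested 34.9% were called higher in hCAR/hPXR and 7.38% in C3H mice. The share of all genes called in both, or positive in all 3, is not given here. The C3H call was lost in 8 of 14 alternative fits for Irf1, 10 of 13 for Ifit2 and 4 of 14 for Oas1a. Ifit2 was tested in hCAR/hPXR and C3H mice only through its PB arrays, since 6 of 7 hCAR/hPXR controls and 2 of 3 C3H controls were above background. Groups without overlap, PB above control, were seen for 4 members in hCAR/hPXR mice (Ddx58, Ifi35, Bst2 and Psmb8), against 12.3% of all genes tested there. In C3H mice 10 members had every PB animal above every control, against 17.3% of all genes tested, and these were Irf1, Usp18, Ifih1, Ddx58, Zbp1, Ifit1, Ifit2, Oas1a, Oasl2 and Cxcl10.

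Animals within a group differed in how far all members moved. In CD-1 mice PB animal 2 was the highest PB animal for 18 of 25 members and lay above the control mean for all 25, with a median over the members of 0.88 above the control mean. PB animal 1 was the lowest for 19, with a median of -0.47 over the members and -0.26 over all genes tested, and PB animals 3 and 4 had medians of 0.03 and 0.45. Without PB animal 1, Zbp1 (difference 1.22, adjusted p = 0.0412) and Cxcl10 (2.27, adjusted p = 0.0101) were called in CD-1. Cxcl10 could be tested there only because PB animal 1 was its only PB animal not above background. None of the controls was above background for it. Leaving out any other CD-1 animal gave no call. In hCAR/hPXR mice PB animal 6 was the highest for 21 of 31 members, with a median of 1.01 and a level above every control for 30. PB animal 2 was the lowest for 16, with a median of 0.11 and a level above every control for 10. The medians of the 7 controls lay between -0.22 and 0.20. In C3H mice the medians were 0.20, 0.44 and 0.19 in PB animals 1 to 3, against -0.29, 0.09 and 0.10 in control animals 1 to 3.

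**Figure D4:**
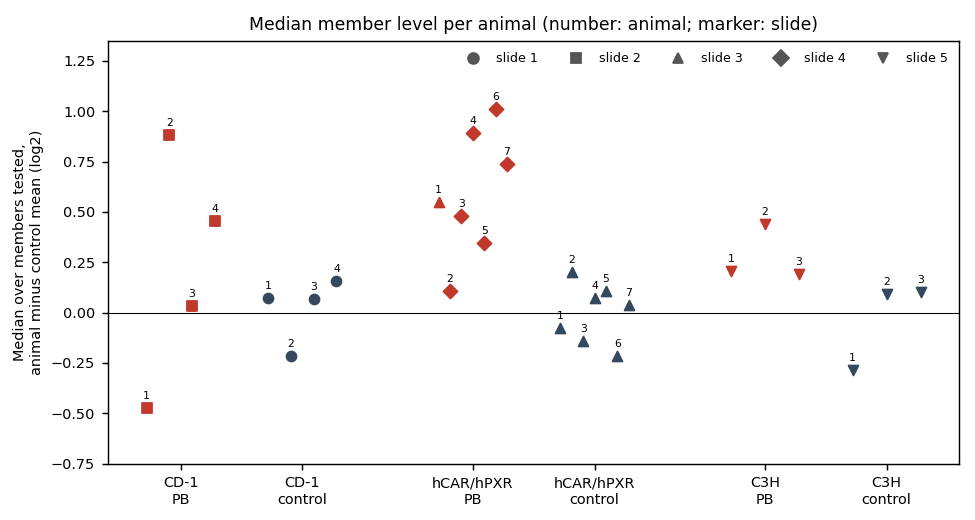
Median over the tested interferon-stimulated genes of each animal's log2 level minus the control mean of its strain (vertical axis), for the 6 groups (horizontal axis, PB left of control), with the animal's number and a marker per slide. PB animals of CD-1 mice spread from -0.47 to 0.88, of hCAR/hPXR mice from 0.11 to 1.01 and of C3H mice from 0.19 to 0.44.

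**Figure D5:**
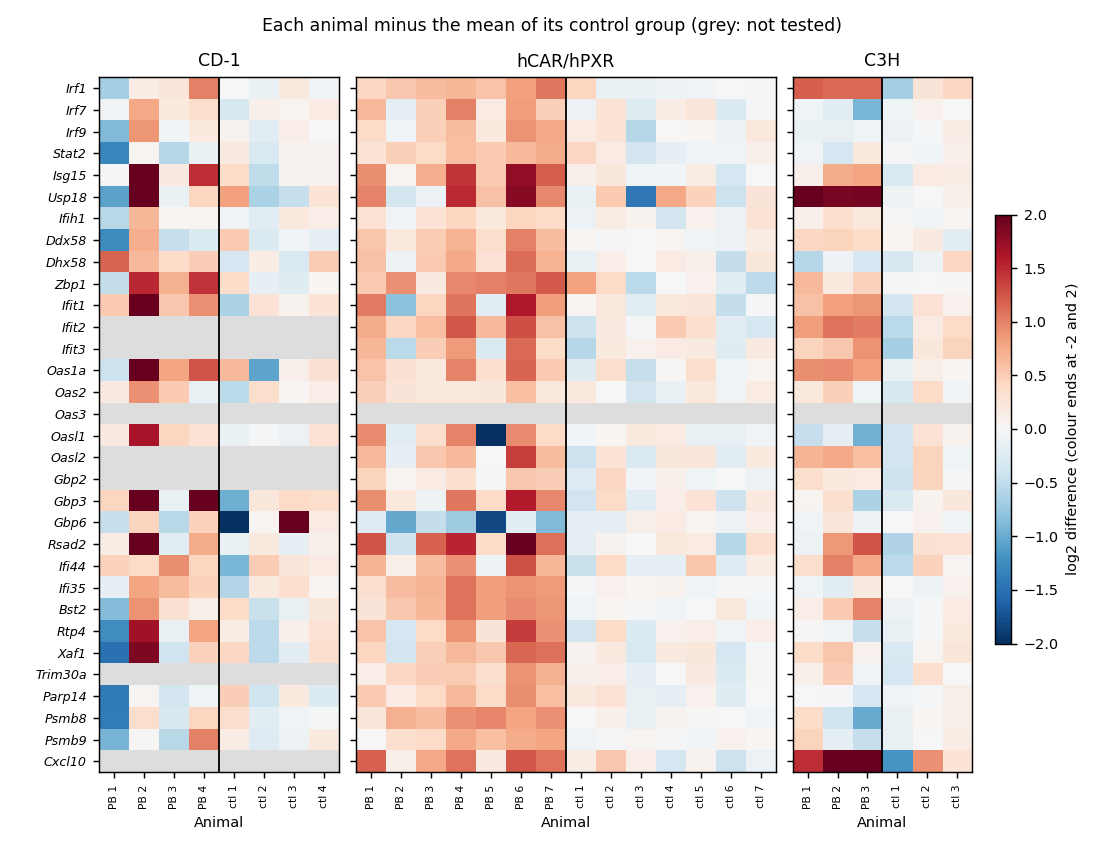
Each animal's log2 level minus the control mean of its strain (colour) for every interferon-stimulated gene (rows) in every animal (columns, PB left of control); grey marks genes not tested in that strain. CD-1 PB animal 2 and hCAR/hPXR PB animal 6 are high for most genes, while CD-1 PB animal 1 is low for most.

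Differences in the size of the PB effect between strains were tested in 1 fit of all 28 arrays over 31 members. The effect of hCAR/hPXR exceeded that of CD-1 mice for 4 members, where 19.5% of all genes tested were called higher and 9.11% lower, so the members' share was below that of all genes. These were Stat2 (effects 0.52 and -0.48, difference 1.004, SE 0.27, adjusted p = 0.00761), Parp14 (0.52 and -0.46, difference 0.97, adjusted p = 0.0175), Psmb8 (0.74 and -0.23, difference 0.97, adjusted p = 0.0444) and Ddx58 (0.56 and -0.32, difference 0.88, adjusted p = 0.0420). Parp14 is a mono-ADP-ribosyl transferase. The fit takes 1 spread per gene for all 6 groups, although these 4 genes varied more among CD-1 than among hCAR/hPXR PB animals. For Stat2 the SD was 0.60 in CD-1 and 0.16 in hCAR/hPXR PB animals, so these p-values may be too small. With the slide as a block the hCAR/hPXR effects were 0.27 for Stat2, 0.52 for Parp14, 0.24 for Psmb8 and 0.55 for Ddx58. The median difference over the 31 members was 0.32 against 0.12 over all genes, and with quantile normalization it was -0.23 against 0.03 and none of the 4 was called. No member was called for C3H minus CD-1 mice by limma, where 9.61% of all genes tested were called higher and 5.44% lower, although 3 had an unadjusted p under 0.05 and quantile normalization called 1. No member was called for C3H minus hCAR/hPXR mice, where 4.16% of all genes were called higher and 5.4% lower, although 4 had an unadjusted p under 0.05 and the fit with a replicate block called 1. For Usp18 the effect in C3H exceeded that in CD-1 mice by 1.64 (adjusted p = 0.178) and that in hCAR/hPXR mice by 1.25 (adjusted p = 0.301). For Cxcl10 the effect in C3H exceeded that in hCAR/hPXR mice by 1.06 (adjusted p = 0.339).

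The control livers differed in their levels of these genes, in data that the PB animals do not enter. Of 30 members tested, hCAR/hPXR controls were higher than CD-1 controls for 28 and lower for 1, where 51.2% of all genes were called higher and 37.5% lower. The median difference was 2.40 over the members, against 0.57 over all genes. With quantile normalization these medians were 2.03 and 0.38, and with normexp background correction 1.37 and 0.20. Of the 30 members 11 were not above background on every CD-1 control, so they entered through the hCAR/hPXR controls, where they are high. The 19 that were had a median of 2.02 against 0.92 over all genes so chosen, with 17 higher and 1 lower. Cxcl10 was at least 10.3-fold higher in hCAR/hPXR controls, whose 7 arrays were all above background, than in CD-1 controls, none of which was (adjusted p = 1.68e-08). Trim30a, a regulator of inflammatory signalling in mouse, was at least 3.36-fold higher (adjusted p = 1.09e-09). Irf9 was higher by 3.52 on the log2 scale. Oas2 and Ifit3 read 3.81 and 3.56 higher, but each was above background on only 2 of the 4 CD-1 controls. Ifi44, a GTP-binding protein, was the member that was lower, at -1.44 in hCAR/hPXR against 0.18 in CD-1 controls (SD 0.63 in the 4 CD-1 controls, difference -1.62, adjusted p = 5.07e-05). Xaf1, a partner of the apoptosis inhibitor Xiap, was not called (difference 0.17), and with quantile normalization it read -0.70 and was called lower.

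C3H controls were higher than CD-1 controls for 27 members and lower for 1, again Ifi44 (difference -1.05), where 51.1% of all genes were called higher and 38.1% lower. The median difference was 2.24, against 0.73 over all genes. With quantile normalization these medians were 1.74 and 0.37, and with normexp 1.07 and 0.22. Members missing the background mark on some CD-1 control entered through the C3H controls, where they are high. The 19 members that had the mark in all CD-1 and C3H controls had a median of 2.28, with 17 higher and 1 lower. Over all genes chosen in this way the median was 1.55, so the members' lead was smaller there. Oas1a was higher by 3.95, Bst2 by 3.68, Irf9 by 3.55 and Ifi35 by 3.45, and Cxcl10 was at least 7.46-fold higher (adjusted p = 6.81e-07). Between C3H and hCAR/hPXR controls the members split, with 7 higher and 6 lower in C3H, where 31.3% of all genes were called higher and 19.6% lower. With quantile normalization 1 member was higher and 5 lower, while over all genes 14.96% were called higher and 15.87% lower. Ifi35 (1.02), Bst2 (0.86), Psmb9 (0.74), Dhx58 (0.58) and Stat2 (0.55) were the largest of those higher in C3H controls. Oas2 (-1.80), Gbp2 (-1.02), Gbp3 (-0.78), Trim30a (-0.77) and Ifit1 (-0.58) were the largest of those lower.

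The genes around the members in the pathway were read from the same fits. The interferon genes Ifnb1, Ifna2, Ifna4 and Ifng were tested in no strain, because in no group were they above background on every array. Ifnl3, a type III interferon gene, was lower with PB in hCAR/hPXR (-0.77, adjusted p = 0.00190) and CD-1 mice (-1.003, adjusted p = 0.0372). Among interferons, receptors and signal carriers 7 of 17 rose and 1 fell in hCAR/hPXR mice, where 34.9% of all genes rose and 23.2% fell, so the share is near that of all genes. With the slide as a block the median of these 17 was 0.05 with 9 positive, against 0.29 without it. Those that rose include the type I receptor chain Ifnar2 (0.61), the shared receptor chain Il10rb (0.48) and the transcription factor Irf8 (0.42). In C3H mice 2 of 15 rose, where 7.38% of all genes did, which were Socs3, an inhibitor of cytokine signalling (3.11, adjusted p = 0.00959), and the interferon-gamma receptor chain Ifngr1 (1.75, adjusted p = 0.0221). In CD-1 mice Ifnl3 was the only gene called among the 6 pathway lists.

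Of 33 further interferon-induced genes tested in hCAR/hPXR mice 25 rose and none fell, with a median of 0.47. For each list of this paragraph, the share over all genes tested there was 34.9% higher and 23.2% lower. Those with the smallest adjusted p were Lgals3bp (0.77), Parp10 (0.52), Uba7, the enzyme that activates ISG15 (0.83), and Ifi27l2a (0.79). With the slide as a block 29 of the 33 kept a positive difference, with a median of 0.34. Of 18 sensors and adaptors upstream of interferon 10 rose, among them the kinases Ikbke (0.76) and Tbk1 (0.52) and their target Irf3 (0.69), and 2 fell, among them the RNA receptor Tlr7 (-0.94). Of 20 genes of antigen processing 11 rose and 1 fell, led by tapasin, Tapbp (0.74), its relative Tapbpl (0.56) and the proteasome activators Psme1 (0.61) and Psme2 (0.47), and their median with the slide block was 0.009. Of 12 interferon-gamma-induced GTPases 5 rose and 1 fell, a share near that of all genes, and their median of 0.17 lay near the 0.13 of all genes, with Tgtp2 (1.09), Irgm1 (0.84), Igtp (0.76) and Ifi47 (0.61) named by smallest adjusted p. All 5 chemokines tested rose, among them Ccl4 (1.05), Ccl2 (0.99), Ccl5 (0.35) and Cxcl16 (0.30). The medians with the slide block were 0.11 for the sensors and adaptors, 0.15 for the GTPases and 0.17 for the chemokines, against 0.05 over all genes. With the slide as a block no gene of any of these lists was called.

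In C3H mice 3 of 32 further interferon-induced genes rose, which were Uba7 (0.79), Oas1f (0.73) and Phf11d (0.58), and none fell. This share is near the 7.38% of all genes, and the median of the 32 was 0.05. Of 11 interferon-gamma-induced GTPases Tgtp2 rose (1.02), and Gbp10 (-0.83) and Iigp1 (-0.76) fell. Of 18 sensors and adaptors 2 fell, the transcription factor Irf5 (-2.05) and the DNA-pathway adaptor Sting1 (-1.002). Over all genes tested in C3H mice 7.3% fell. No gene of antigen processing, of 19 tested, and no chemokine, of 6 tested, was called in C3H mice by limma, with 4 and 3 at an unadjusted p under 0.05.

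Markers of other liver cells moved with some of these groups, and their part in the results was not tested. In hCAR/hPXR mice 7 of 11 tested markers of Kupffer cells and macrophages, the resident phagocytes of the liver, rose, where 34.9% of all genes did. Their summed signal, each gene's in units of the array's 75th percentile, was 162 to 315 in PB animals, against 145 to 197 in controls. With the slide as a block 4 of the 11 had a positive difference. Of 9 tested T and NK cell markers 1 rose and 4 fell, where 23.2% of all genes fell, with a sum of 20.3 to 30.2 in PB animals, against 39.2 to 58.0 in controls, and Cd8a and Klrb1c were above background on no array of either group. In C3H mice no Kupffer cell marker was called, with sums of 103 to 128 in PB animals, against 115 to 151 in controls. Of 9 hepatocyte markers 5 fell there, where 7.3% of all genes did. Their sums were 5875 to 7295 in PB animals, against 9348 to 10203 in controls. In the same mice 2 of 5 markers of plasmacytoid dendritic cells, a main source of type I interferon, rose, where 7.38% of all genes did. The summed signal of that list did not, at 92.4 to 119.3 in PB animals against 102.6 to 121.2 in controls. The summed T and NK cell signal there was 21.4 to 43.2 in PB animals, against 54.8 to 73.7 in controls. The endothelial sum was 81.2 to 115 in PB animals, against 133 to 147 in controls. Neither sum overlapped, and 24.3% of all single genes tested in C3H mice had every PB animal below every control. In CD-1 mice 3 of 9 hepatocyte markers fell, where 6.13% of all genes did. S100a8, 1 gene of the neutrophil list, rose by 6.67. The summed signal of the 7 neutrophil markers overlapped there, at 43.4 to 157.3 in PB animals against 31.0 to 125.9 in controls. Of these 7 markers 4 were above background on every CD-1 PB array and 5 on every CD-1 control array.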

How the data were processed

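The deposited scanner output gives each spot's processed signal as an intensity, made by Agilent Feature Extraction 10.7.3.1 per the file headers and not scaled between arrays. The deposited table of the series holds log2 values that the authors made, and it served as an alternative. Outlier spots (109 to 430 per array) were left out, replicate spots averaged, and the 75th percentile of 55681 non-control probes subtracted from each array's log2 processed signal. Probes were named by matching RefSeq accessions to the GRCm38.p6 annotation (26582 probes, 20145 symbols), and each gene was read from the probe with the highest mean over 28 arrays. For every strain a separate limma fit (version 3.58.1, R 4.3.3) set PB against control, two-sided, with Benjamini-Hochberg adjustment over all genes tested and a threshold of 0.05; residual degrees of freedom were 6 in CD-1, 12 in hCAR/hPXR and 4 in C3H mice. Effects were compared between strains in 1 fit of all arrays, and controls in 1 fit of the 14 control arrays. If a group had no array above background, its values were raised to each array's lowest value marked above background, which gives the folds written as "at least". The number of arrays limits the precision. The fits were tested on simulated data. Per-animal values are given for Irf7, Stat2, Usp18, Isg15, Ifit1 and Cxcl10, and per strain for up to 8 called members with the largest difference (the 3 largest tested ones where fewer than 3 are called), and up to 4 genes of each other list are named by smallest adjusted p. The members, the lists and the tests were chosen with earlier results of these data known. Replicate numbers were checked for pairing: deviations of same-numbered animals correlated at -0.45 to 0.06 in CD-1, -0.13 to 0.27 in hCAR/hPXR and 0.04 to 0.18 in C3H mice, so no pairing was used.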

Additional observations from a re-analysis of the deposited data

Results flagged for a closer look

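In 128 groups of 4 to 7 animals examined, member by member, 8 had 1 animal far from the others by Dixon's test, a gap that chance alone gives in about 1 of 20 groups. In CD-1 mice PB animal 2 was far above the other PB animals for Ifit1 (1.52, next -0.71) and Oasl1 (3.04, next 1.82), and PB animal 3 for Ifi44 (1.11, next 0.64). CD-1 control animal 1 was far below the other controls for Gbp3 (-3.14, next -1.93). In hCAR/hPXR mice PB animal 5 was far below for Oasl1 (0.68, next 3.83) and PB animal 2 for Ifih1 (2.60, next 2.90). Among hCAR/hPXR controls, animal 1 was far above for Irf1 (4.23, next 3.83) and animal 4 for Oas3 (-2.81, next -3.37).

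For 4 members the PB effect in hCAR/hPXR minus that in CD-1 mice passed limma's test over all genes. The difference on the log2 scale was 1.004 for Stat2 (adjusted p = 0.00761), 0.97 for Parp14 (0.975 before rounding, adjusted p = 0.0175), 0.97 for Psmb8 (adjusted p = 0.0444) and 0.88 for Ddx58 (adjusted p = 0.0420). Among all genes 19.5% were called higher in this comparison, and no cause was tested. The fit takes 1 spread per gene for groups whose spreads differ, so these p-values may be too small.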

How the results depend on the processing

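No called member difference of PB against control changed sign under the alternatives run. In CD-1 mice 1 fit of all 28 arrays called 4 members (Isg15, Dhx58, Ifit1 and Gbp3), against 0, and fits without 1 animal called 0 to 2, with 2 only without PB animal 1. In hCAR/hPXR mice 27 calls became 15 in 1 fit of 28 arrays, 0 with the slide as a block and 1, Oasl1, on the first slide alone, which sets the single array of PB animal 1 against 7 controls and assumes that it varies like them, an alternative added after seeing the data, as were the fits without 1 animal there (22 to 30). In C3H mice 5 calls became 1 with no filter on dim probes, 2 with the mean over probes and 3 in 1 fit of 28 arrays, and 1 to 7 without 1 animal: 7 without PB animal 1, 1 without PB animal 2, 2 without PB animal 3, 3 without control animal 1 or 2 and 1 without control animal 3. For hCAR/hPXR minus CD-1 effects, 4 calls became 0 with quantile normalization, 2 with normexp, 2 with no filter and 1 with a replicate block, and 1 to 6 without 1 animal: 6 without PB animal 4, 2 without PB animal 3 and 1 without control animal 1 of CD-1. For C3H minus CD-1 effects, 0 calls became 1 (Dhx58, lower) with quantile normalization, normexp or only genes above background on every array, and 0 to 2 without 1 animal, with 2, both higher, without PB animal 2 of CD-1, 2, both lower, without PB animal 3 of CD-1, and 1 without PB animal 4 or control animal 4 of CD-1 or control animal 1 of C3H. For C3H minus hCAR/hPXR effects, 0 calls became 1 (Ifi35, lower) with a replicate block and 0 to 2 without 1 animal, with 2 (Irf7 and Psmb8, lower) without C3H PB animal 1. Both control comparisons with CD-1 gave 18 calls when only genes above background on every array were tested, where fewer members could enter. C3H against hCAR/hPXR controls gave 6 calls with quantile normalization, against 13, and 8 to 12 without 1 C3H control, with 8 without animal 1. The cause of these changes was not tested unless the alternative itself removes genes or animals. The replicate block called 0 members in CD-1, 20 in hCAR/hPXR and 4 in C3H mice, but the numbers name animals and do not pair them: each animal correlated best with its own number in 0 of 4, 2 of 7 and 2 of 3 cases. The slide could not be fitted as a block in CD-1 mice, where each slide holds 1 group, or in C3H mice, which have 1 slide. In CD-1 mice 7 of the 32 members were above background too rarely to be tested.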
